A study of Mus musculus with 8 samples.

Results

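The genes described here are *Trp53*, which encodes the transcription factor p53, its inhibitors *Mdm2* and *Mdm4*, and 7 direct targets of p53, namely *Ccng1*, *Sesn1*, *Sesn2*, *Zmat3*, *Eda2r*, *Phlda3* and *Trp53inp1*. They were picked by symbol, and all 10 were found once among the 54532 genes of the count table. RNA-Seq libraries came from sorted LSK cells of the bone marrow (cells without lineage markers that carry c-Kit and Sca-1, the compartment that holds stem and progenitor cells), 4 from the EpCAM+ fraction and 4 from the EpCAM- fraction. Every library was made from C57BL/6 *Zeb1-/-* mice, that is *Zeb1 fl/fl;Mx1-Cre+/-* animals given pIpC to delete *Zeb1*, aged 8 to 12 weeks and sampled on day 14 after the last dose. The fractions therefore differ in EpCAM on the cell surface and share the *Zeb1* deletion, the Cre and the pIpC, and no library of this comparison came from a control mouse. Mx1-Cre is driven by an interferon-responsive promoter, so deletion is not limited to blood stem cells.

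p53 is kept low in unstressed cells because MDM2 marks it for degradation, while MDM4 binds it and masks its activation domain. Stress signals break this hold through changes to the proteins, after which p53 activates genes for cell cycle arrest, repair, altered metabolism and death, and also *Mdm2*, which closes a feedback loop. In blood stem cells p53 is known for its part in quiescence and in the response to DNA damage. Messenger RNA counts report neither the amount nor the activity of the p53 protein.

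Between 14114491 and 17073546 reads were counted on genes per library. *Epcam* had 2818 to 3580 counts in EpCAM+ libraries and 17 to 144 in EpCAM- libraries, and the deleted gene *Zeb1* had 261 to 373 and 129 to 214 counts. By the test described below, *Zeb1* was higher in EpCAM+ libraries (log2 fold change 0.72, edgeR adjusted p = 0.00798). Whether these *Zeb1* reads lie inside or outside the deleted part cannot be read from a gene total. Of the sort markers, *Kit* had 3988 to 5870 counts in EpCAM+ and 2096 to 3930 in EpCAM- libraries, and *Ly6a*, which encodes Sca-1, had 1786 to 5370 and 214 to 1149. Some markers of other cells were called higher or lower in EpCAM+ libraries by the test described below. That test called 21.8% of all tested genes higher and 20.8% lower. The summed level of 6 erythroid markers was 43.1 to 215 CPM (read counts brought to a common library size, with edgeR's TMM scaling) in EpCAM+ libraries and 1896 to 6615 CPM in EpCAM- libraries, with 5 of the 6 lower. Of the erythroid sum *Car1* alone was 16.0 to 158 CPM in EpCAM+ and 1599 to 5956 CPM in EpCAM- libraries. The summed level of 7 neutrophil and monocyte markers was 811 to 1369 against 10067 to 16466 CPM, with 3 of 7 lower. Most of this sum was *Mpo*, at 566 to 1175 against 8739 to 12205 CPM. *S100a8*, *S100a9*, *Ly6c2* and *Itgam* did not pass (log2 fold change -0.15, 0.17, -1.91 and -0.37). That of 7 B and plasma cell markers was 289 to 3694 against 46.3 to 78.7 CPM, with 4 of 5 tested genes higher and *Pax5* at 0 in every library. Of this sum *Jchain* alone was 199 to 3525 CPM in EpCAM+ and 0 to 0.273 CPM in EpCAM- libraries. Of 6 tested dendritic cell markers 4 were higher, with summed levels of 452 to 1107 against 347 to 548 CPM. *Flt3* alone was 286 to 464 CPM in EpCAM+ and 136 to 259 CPM in EpCAM- libraries. *Irf8* and *Bst2*, also part of this sum, did not pass (log2 fold change 0.78 and -0.02). *Ms4a1*, *Jchain*, *Mzb1*, *Xcr1* and *Ccr9* had at most 13 counts in any EpCAM- library. They entered the test through the EpCAM+ libraries, so a lower call was not open to them. Of the T and NK cell markers 1 gene was tested and higher, with summed levels of 2.32 to 5.84 and 0.809 to 1.63 CPM, and of the 4 tested megakaryocyte markers 1 was higher, at 123 to 357 and 80.7 to 273 CPM. The part of these cells in the results below was not tested, and in bulk libraries fewer cells of a type and less RNA per cell cannot be told apart.

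The promoters of some of the genes show the letters p53 reads. RefSeq promoter windows of GRCm38.p6, from 250 bases before to 50 bases after a transcription start, were available for 8 members, with 10 windows in all, and were searched for the p53 consensus decamer, the 10-base unit of which a pair makes up a p53 response element. The decamer consensus reads the same on both strands. An exact decamer was found in 4 of the 10 windows, those of *Trp53*, *Mdm2*, *Ccng1* and the downstream start of *Sesn1*, and in 8.36% of all 32851 windows. A pair of decamers at most 13 bases apart with at most 1 mismatch in all was found in 1 member window, that of *Ccng1*, and in 0.627% of all windows. The stretches that hold them are shown with the decamer in capitals, beside that of *Cdkn1a*, the best known target. The window of the upstream *Cdkn1a* start holds 2 exact decamers, and that of its downstream start holds none. The *Trp53* stretch is chr11:69580259-69580318 on the plus strand, and its decamer begins at position -75 from the start.
Trp53: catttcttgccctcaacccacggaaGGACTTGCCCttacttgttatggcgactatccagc
The *Mdm2* stretch is chr10:117710910-117710969 on the minus strand, with the decamer at -186.
Mdm2: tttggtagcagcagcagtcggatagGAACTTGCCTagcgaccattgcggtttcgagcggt
The *Ccng1* stretch is chr11:40755437-40755496 on the minus strand, with the decamer at -185, and the 10 bases just before the capitals differ from the consensus at 1 position.
Ccng1: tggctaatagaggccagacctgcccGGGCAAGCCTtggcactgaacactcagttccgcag
The *Sesn1* stretch is chr10:41887241-41887300 on the plus strand, with the decamer at -173.
Sesn1: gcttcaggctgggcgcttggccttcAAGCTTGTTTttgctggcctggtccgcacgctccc
The *Cdkn1a* stretch is chr17:29090881-29090962 on the plus strand, with the first decamer at -73 from the upstream start.
Cdkn1a: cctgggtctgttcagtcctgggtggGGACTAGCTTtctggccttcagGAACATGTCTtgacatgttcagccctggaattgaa
A match describes these letters only. Of these 5 genes, *Trp53*, *Ccng1* and *Cdkn1a* were lower in EpCAM+ cells by the test described below, and *Mdm2* and *Sesn1* did not pass it.

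The fractions were compared with edgeR's quasi-likelihood test on all genes with enough reads, with adjusted p-values (Benjamini-Hochberg) and a threshold of 0.05. Of the 10 members, 9 could be tested, and *Eda2r* had too few reads. *Trp53*, *Ccng1* and *Phlda3* were lower and *Trp53inp1* was higher in *Zeb1-/-* EpCAM+ HSPCs, and the remaining 5 did not pass. Among all 13560 genes tested, 42.6% differed, 21.8% being higher and 20.8% lower, so 4 of 9 is a share near that of all genes. In 2 of the 9 members the values did not overlap between EpCAM+ and EpCAM- libraries, against 40.1% of all tested genes. The median log2 fold change of the 9 was -0.09, against 0.02 over all tested genes. With upper-quartile scaling the median of all tested genes was 0.11 and the split of calls moved from 2961 higher and 2818 lower to 3642 and 2083, and the directions of the 4 called members were the same.

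**Figure D1:**
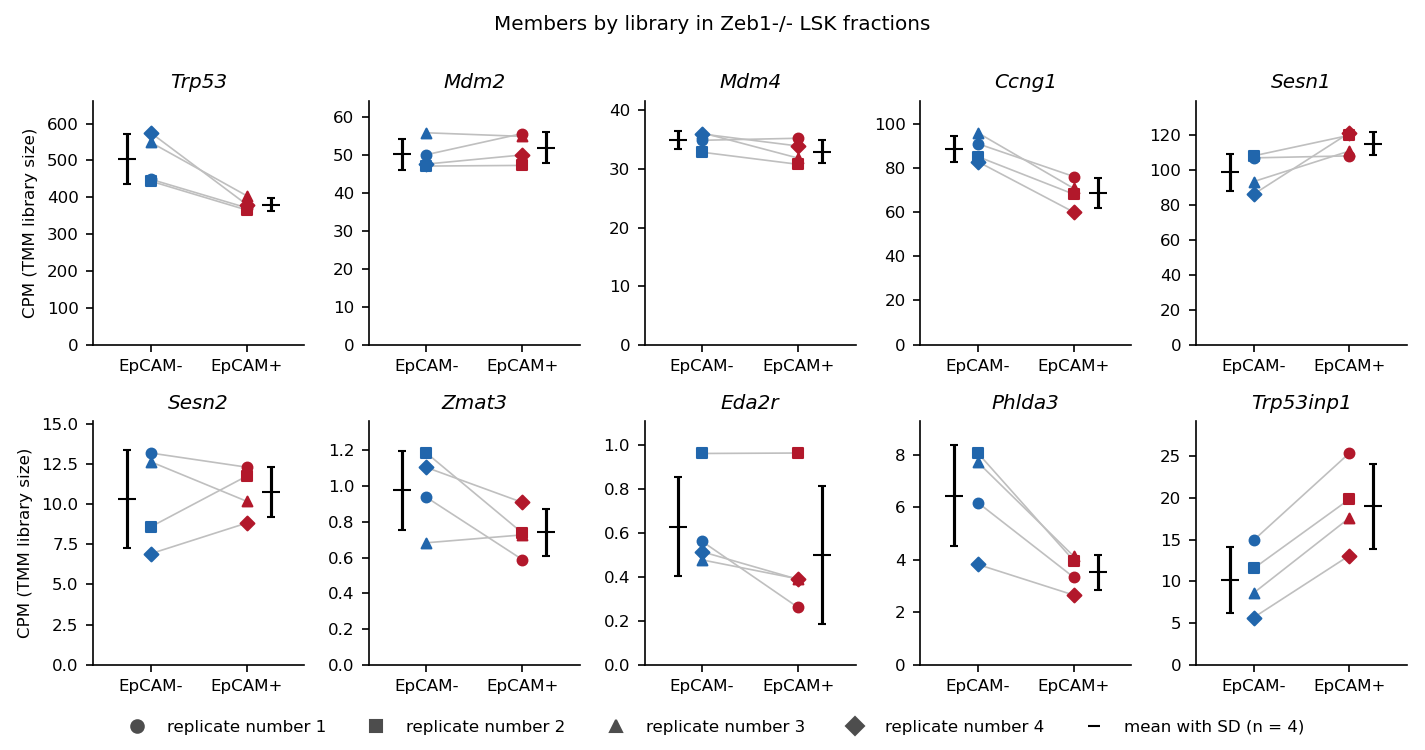
Level of each member in each library in CPM (vertical axes from 0), for EpCAM- and EpCAM+ fractions. Grey lines join libraries with the same replicate number, marker shapes give the number, and black bars are the mean with the SD of 4 libraries. Trp53 and Ccng1 show separated fractions, and every joined line falls for Phlda3 and rises for Trp53inp1.

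*Trp53* itself (ENSMUSG00000059552, chromosome 11 of GRCm38, 69580359 to 69591873, plus strand) was lower in EpCAM+ cells. Its level was 372, 365, 404 and 380 CPM in EpCAM+ replicates 1 to 4 and 449, 444, 549 and 575 CPM in EpCAM- replicates 1 to 4. All 4 EpCAM+ values lay below all 4 EpCAM- values, and the EpCAM- libraries were the more spread (SD 67.7 against 17.0 CPM). The mean was 380 ± 17.0 CPM (SD, n = 4) against 504 ± 67.7 CPM (SD, n = 4), and the fitted level fell by 24.6% (log2 fold change -0.41, standard error 0.10, edgeR adjusted p = 0.00792). The exact two-sided permutation test over the libraries gave p = 0.0286, the smallest that 4 against 4 allow. That permutation ignored the replicate numbers, and swaps within the 4 numbered pairs alone could give no p this small. With the replicate number as a block in the edgeR fit, the log2 fold change was -0.40 (edgeR adjusted p = 0.00168). Within the 4 pairs of libraries with the same number the log2 difference ran from -0.60 to -0.27. Its processed copy *Trp53-ps* had 14 to 37 counts beside 5683 to 8046 of *Trp53*, and how reads that match both were counted is not given in the sources used here.

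Neither inhibitor of p53 passed the test. *Mdm2* (ENSMUSG00000020184, chromosome 10, 117688875 to 117710758, minus strand), the ubiquitin ligase for p53 and itself a p53 target, had 55.6, 47.2, 54.9 and 49.997 CPM in EpCAM+ replicates 1 to 4 and 50.1, 47.1, 55.8 and 47.6 CPM in EpCAM- replicates. The fractions covered the same range. The log2 fold change was 0.05 with a 95% interval from -0.14 to 0.24 (edgeR adjusted p = 0.659). Counts per gene do not separate the p53-responsive transcripts of *Mdm2*, which start inside the gene, from the others. *Mdm4* (ENSMUSG00000054387, chromosome 1, 132959484 to 133030561, minus strand), the relative of *Mdm2* that masks the p53 activation domain, had 35.2, 30.8, 31.9 and 33.9 CPM against 34.9, 32.9, 36.2 and 36.0 CPM. These values overlapped as well, with a log2 fold change of -0.09 and a 95% interval from -0.26 to 0.09 (edgeR adjusted p = 0.404).

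Because both inhibitors and *Trp53* were counted in the same libraries, their ratio does not depend on the scaling. The log2 ratio of *Mdm2* to *Trp53* counts was -2.95 to -2.74 in EpCAM+ libraries and -3.59 to -3.16 in EpCAM- libraries, a 1.37-fold higher ratio in EpCAM+ cells. That of *Mdm4* to *Trp53* was -3.66 to -3.40 against -4.00 to -3.68, a 1.24-fold higher ratio. The EpCAM+ and EpCAM- ranges were separate for either ratio. Permuting the libraries (exact, two-sided, 4 against 4) gave p = 0.0286 for each, and 0.0286 adjusted over the 2 ratios. This permutation also ignored the replicate numbers that pair the libraries. These ratios use the same *Trp53* counts as the test above and were chosen after the counts were seen.

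*Ccng1* (ENSMUSG00000020326, chromosome 11, 40748552 to 40755311, minus strand) encodes cyclin G1, which recruits a phosphatase to MDM2. It had 76.1, 68.1, 70.7 and 60.0 CPM in EpCAM+ replicates 1 to 4 and 90.9, 85.1, 95.9 and 82.8 CPM in EpCAM- replicates. Every EpCAM+ value lay below every EpCAM- value, and the difference was of the same order as that of *Trp53*. The level fell by 22.5% (log2 fold change -0.37, standard error 0.09, edgeR adjusted p = 0.00679), and the log2 difference within the numbered pairs ran from -0.47 to -0.26. *Trp53* and *Ccng1* passed the threshold in all 8 fits that left out 1 library.

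The sestrins link p53 to nutrient signalling: they restrain mTORC1 when amino acids are scarce or cells are stressed. *Sesn1* (ENSMUSG00000038332, chromosome 10, 41809935 to 41908424, plus strand) had 108, 120, 111 and 121 CPM in EpCAM+ replicates 1 to 4 and 107, 108, 93.2 and 85.9 CPM in EpCAM- replicates. The lowest EpCAM+ value reached the highest EpCAM- value, and the EpCAM+ library had more in each of the 4 numbered pairs. The log2 fold change was 0.22 with a 95% interval from 0.03 to 0.41 (edgeR adjusted p = 0.0619). This did not pass, and with the replicate number as a block it did (log2 fold change 0.23, edgeR adjusted p = 0.0449), as it did with upper-quartile scaling (0.31, adjusted p = 0.0233). *Sesn2* (ENSMUSG00000028893, chromosome 4, 132492032 to 132510501, minus strand) had 12.3, 11.7, 10.2 and 8.82 CPM against 13.2, 8.58, 12.6 and 6.91 CPM. Its fractions covered the same range, 2 of 4 pairs went each way, and the log2 fold change of 0.06 had a 95% interval from -0.42 to 0.53 (edgeR adjusted p = 0.850). Genes that overlap the sestrins in the table had few reads, 3 to 17 counts for *9930024M15Rik* in *Sesn1* and 0 to 2 for *Gm12981* in *Sesn2*, and *Gm29257* in *Mdm4* had 0 to 6.

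*Phlda3* (ENSMUSG00000041801, chromosome 1, 135766119 to 135769136, plus strand) encodes a pleckstrin homology protein that competes with AKT for membrane lipids. It had 3.33, 3.97, 4.14 and 2.66 CPM in EpCAM+ replicates 1 to 4 and 6.18, 8.07, 7.71 and 3.82 CPM in EpCAM- replicates, on 41 to 113 counts. EpCAM- replicate 4 lay among the EpCAM+ values, and the EpCAM+ library was the lower one in each of the 4 numbered pairs. The level fell by 45.2% (log2 fold change -0.87, standard error 0.26, edgeR adjusted p = 0.0207). The call was lost without EpCAM+ replicate 4 (adjusted p = 0.0533), EpCAM- replicate 2 (0.0540) or EpCAM- replicate 3 (0.0593). The replicate block gave a log2 fold change of -0.85 (edgeR adjusted p = 0.00434).

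*Trp53inp1* (ENSMUSG00000028211, chromosome 4, 11156431 to 11174379, plus strand), whose product acts in autophagy and, in the nucleus, promotes p53-driven death, was the member that rose. It had 25.4, 19.8, 17.6 and 13.1 CPM in EpCAM+ replicates 1 to 4 and 14.9, 11.5, 8.60 and 5.66 CPM in EpCAM- replicates. The fractions overlapped because EpCAM+ replicate 4 was lower than EpCAM- replicate 1. The mean was 19.0 ± 5.10 CPM (SD, n = 4) against 10.2 ± 3.97 CPM (SD, n = 4), and the log2 fold change was 0.89 (1.86-fold, standard error 0.28, edgeR adjusted p = 0.0266). Libraries with the same number differed by 0.77 to 1.21 on the log2 scale, and the replicate block gave a log2 fold change of 0.93 (edgeR adjusted p = 0.000434). Without the block the call was lost when EpCAM+ replicate 1 (adjusted p = 0.0778), EpCAM+ replicate 2 (0.0509), EpCAM- replicate 3 (0.0757) or EpCAM- replicate 4 (0.0520) was left out.

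The last members were near the limit of detection. *Zmat3* (ENSMUSG00000027663, chromosome 3, 32334792 to 32366014, minus strand), an RNA-binding protein that p53 uses to shape splicing, had 0.588, 0.737, 0.727 and 0.908 CPM in EpCAM+ replicates 1 to 4 and 0.936, 1.18, 0.683 and 1.10 CPM in EpCAM- replicates, on 9 to 16 counts. The fractions overlapped. Its log2 fold change was -0.39 with a 95% interval from -1.06 to 0.28 (edgeR adjusted p = 0.317). *Eda2r* (ENSMUSG00000034457, chromosome X, 97333840 to 97377216, minus strand), a death-domain-free receptor of the TNF family, had 0.262, 0.964, 0.391 and 0.389 CPM in EpCAM+ replicates 1 to 4 and 0.562, 0.962, 0.478 and 0.515 CPM in EpCAM- replicates. Its 4 to 17 counts per library were too few for the test, and the fractions overlapped.

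**Figure D2:**
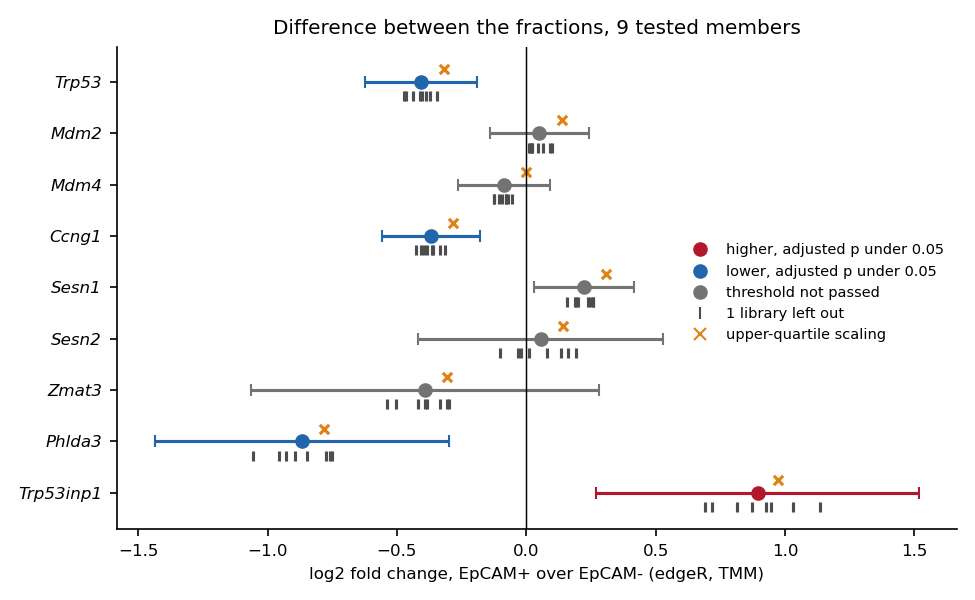
Log2 fold change of the 9 tested members (EpCAM+ over EpCAM-), with 95% intervals. Red is higher, blue lower and grey a threshold not passed, ticks below a point are the 8 fits without 1 library, and orange crosses use upper-quartile scaling. Trp53 at -0.41, Ccng1 at -0.37 and Phlda3 at -0.87 lie below 0 and Trp53inp1 at 0.89 lies above it, and the crosses lie to the right of the points.

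Per kilobase of gene length, the levels of the members spanned more than 3 orders of magnitude. The median over the 8 libraries was 105 CPM per kilobase for *Trp53*, whose range of 90.4 to 142 did not meet that of the next gene. *Sesn1* followed with 27.1 and *Ccng1* with 22.6 CPM per kilobase, and these neighbours overlapped. *Mdm2* stood apart at 9.84 CPM per kilobase. *Sesn2* (3.15), *Phlda3* (2.599), *Mdm4* (2.32) and *Trp53inp1* (2.16) overlapped each with the next, and *Eda2r* (0.0842) and *Zmat3* (0.0719) came last, overlapping as well. The FPKM that the authors computed kept the order of the first 4 and the last 2 genes but put *Mdm4* at rank 5 with a median of 15.7, *Trp53inp1* at 4.29, *Phlda3* at 4.25 and *Sesn2* at 3.30 FPKM. They rest on other gene lengths than the length column, which gives *Mdm4* 14798 bases.

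**Figure D3:**
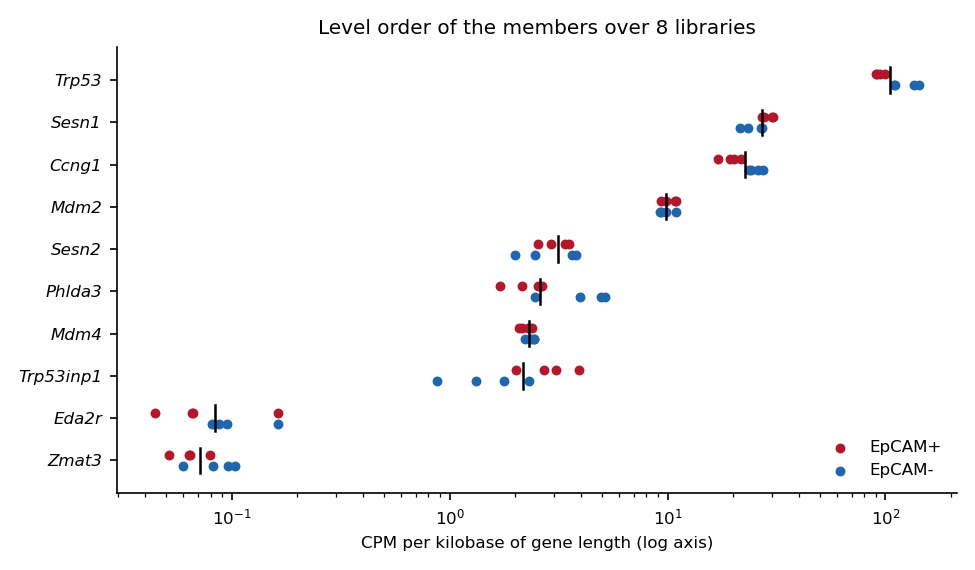
CPM per kilobase of gene length (logarithmic axis) for each member, ordered by the median over 8 libraries (black bars). Red points are EpCAM+ and blue points EpCAM- libraries, 4 of each. Trp53 has the highest level at a median of 105 CPM per kilobase, and Eda2r and Zmat3 the lowest.

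Across the 8 libraries the genes whose log2 CPM followed *Trp53* most closely were *Cyth3* (Pearson r = 0.996), *B3galnt2* (0.995) and *Txnrd2* (0.995). Each was lower in EpCAM+ cells, by -1.59, -0.56 and -0.57 on the log2 scale. Among the members, r with *Trp53* was 0.73 for *Ccng1*, 0.66 for *Mdm4*, 0.50 for *Phlda3*, 0.39 for *Zmat3*, -0.04 for *Mdm2*, -0.32 for *Sesn2*, -0.91 for *Trp53inp1* and -0.93 for *Sesn1*, and *Eda2r* was not included. These values are descriptions over 8 libraries that share the difference between the fractions and the replicate numbers.

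Regulators of p53 outside the members were mixed. Of 33 such genes 32 were tested, of which 6 were higher and 7 lower in EpCAM+ cells, with a median log2 fold change of -0.09, and with upper-quartile scaling 7 were higher and 3 lower. The called share of 40.6% is close to the 42.6% of all tested genes. The genes that rose with the smallest adjusted p included *Ppp1r13b*, which encodes ASPP1, a cofactor that steers p53 towards death genes, at 77.3 ± 11.1 CPM (SD, n = 4) in EpCAM+ against 48.0 ± 6.26 CPM (SD, n = 4) in EpCAM- libraries. Its log2 fold change was 0.69 (edgeR adjusted p = 0.00176). *Trp53bp1*, whose product binds p53 and DNA breaks, rose by 0.63, *Crebbp*, the acetyltransferase CBP, by 0.42, and *Hipk2*, a kinase of p53, by 0.53 (edgeR adjusted p = 0.00209, 0.00691 and 0.0190). *Kmt5a*, the methyltransferase that marks p53 at its C-terminal end, was lower at 125 ± 4.60 CPM (SD, n = 4) against 192 ± 12.03 CPM (SD, n = 4), with a log2 fold change of -0.62 (edgeR adjusted p = 0.000218). *Usp10*, which removes ubiquitin from p53, had -0.43 (edgeR adjusted p = 0.00222).

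Of the genes grouped around proteins that bind MDM2 and thereby free p53, 5 were tested, of which 3 were lower and none higher, where 20.8% of all tested genes were lower. Not every protein of this group need bind MDM2 itself. The count is small, and lower calls over all regulators went from 7 to 3 with upper-quartile scaling. *Npm1*, the nucleolar protein nucleophosmin, had 685, 847, 884 and 892 CPM in EpCAM+ replicates 1 to 4 and between 1125 and 1642 CPM in EpCAM- libraries, with no overlap and a log2 fold change of -0.78 (edgeR adjusted p = 0.00121). *Rpl5*, a ribosomal protein that holds MDM2 when ribosome assembly fails, had -0.43 (edgeR adjusted p = 0.0219), and *Rpl11*, its partner, had -0.29 (edgeR adjusted p = 0.0476). Many processed copies of *Npm1*, *Rpl5* and *Rpl11* exist in the genome, so their counts depend on how shared reads were assigned, which is not given in the sources used here. *Cdkn2a*, which encodes the MDM2 inhibitor ARF, had 0 or 1 counts per library and was not tested.

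Other direct targets of p53 also moved both ways. Of 36 listed genes 35 were tested, of which 6 were higher and 12 lower in EpCAM+ cells, with a median log2 fold change of -0.10. With a filter of 10 counts in every library, 29 were tested, of which 4 were higher and 10 lower. The called share was 51.4%, where 20.8% of all tested genes were lower and 21.8% higher. Among 12 targets in apoptosis, 5 were lower and 1 was higher, among 7 in the cell cycle 2 were lower and 2 higher, and among 8 in metabolism 4 were lower and 2 higher.

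*Cdkn1a*, which encodes the cell cycle inhibitor p21, had 19.7, 28.4, 10.5 and 24.7 CPM in EpCAM+ replicates 1 to 4 and 37.0, 66.0, 30.2 and 33.4 CPM in EpCAM- replicates. All EpCAM+ values lay below all EpCAM- values, and the log2 fold change was -1.0005 (standard error 0.31, edgeR adjusted p = 0.0263). *Bax*, the pore-forming effector of mitochondrial death, was lower with 79.5 ± 6.65 CPM (SD, n = 4) against 114 ± 5.07 CPM (SD, n = 4), a log2 fold change of -0.52 (edgeR adjusted p = 0.000740). *Bbc3*, which encodes the BH3-only protein PUMA, had 15.5 ± 2.94 CPM (SD, n = 4) against 11.5 ± 1.92 CPM (SD, n = 4), with overlap and a log2 fold change of 0.43 (edgeR adjusted p = 0.0646). These 3 genes were named whatever their values.

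The lower targets with the smallest adjusted p were *Steap3*, a ferrireductase, at 8.88 ± 1.86 against 37.9 ± 10.4 CPM (SD, n = 4 each), *Bax*, *Gls2*, a mitochondrial glutaminase, at 0.696 ± 0.297 against 4.56 ± 2.43 CPM (SD, n = 4 each), and the noncoding RNA *Pvt1* at 2.12 ± 1.04 against 9.54 ± 3.47 CPM (SD, n = 4 each). Their log2 fold changes were -2.09, -0.52, -2.71 and -2.17 in that order. The higher targets with the smallest adjusted p, 4 of the 6 called, were *Sfn*, which encodes the cell cycle inhibitor 14-3-3 sigma, with a log2 fold change of 3.26, *Ak1*, an adenylate kinase, with 1.28, *Ephx1*, an epoxide hydrolase, with 1.54, and *Btg2*, an antiproliferative gene, with 1.17. The edgeR adjusted p-values of these 8 genes ran from 0.000179 for *Steap3* to 0.00469 for *Btg2*. The *Sfn* level was 22.8 CPM in EpCAM+ replicate 1 and 5.67 to 7.65 CPM in the other EpCAM+ libraries, all above the 0.588 to 1.37 CPM of EpCAM- libraries. *Sfn* and *Ephx1* had 8 to 20 and 7 to 24 counts in EpCAM- libraries, and *Gls2* had 6 to 16 counts in EpCAM+ libraries. Each of these genes entered the test through its higher fraction and fails a filter of 10 counts in every library. *Btg2* overlapped, with 54.2 CPM in EpCAM+ replicate 2 and up to 58.4 CPM in EpCAM- libraries.

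Relatives of the targets that are not known chiefly as p53 targets were also counted. Of the 10 paralogs and ligand genes 6 were tested, of which 4 were higher in EpCAM+ cells and none lower, where 21.8% of all tested genes were higher and 20.8% lower. Of these 4, *Edar* entered the test through the EpCAM+ libraries alone, so a lower call was not open to it. With a filter of 10 counts in every library, 3 genes were tested and all 3 were higher. *Sesn3*, the sestrin driven mainly by FOXO factors, had 13.7, 12.7, 10.8 and 9.14 CPM in EpCAM+ replicates 1 to 4 and 6.99, 5.85, 4.50 and 3.24 CPM in EpCAM- replicates. The fractions did not overlap, and its log2 fold change of 1.17 (edgeR adjusted p = 0.00323) stood beside 0.22 for *Sesn1* and 0.06 for *Sesn2*. The differences between these paralogs were not tested. *Ccng2*, the other cyclin G gene, rose by 0.42 (edgeR adjusted p = 0.0163) where *Ccng1* fell by 0.37, and *Phlda2*, an imprinted relative of *Phlda3*, rose by 1.13 (edgeR adjusted p = 0.00255) where *Phlda3* fell by 0.87. *Edar*, the receptor for the EDA-A1 form of the ligand whose EDA-A2 form binds EDA2R, had 17 to 32 counts in EpCAM+ libraries and 0 to 3 in EpCAM- libraries. The mean EpCAM+ level of *Edar* was 7.19-fold the mean of a floor of 3 counts per library. Its lowest EpCAM+ library was 5.01-fold the highest such floor. The ligand gene *Eda* did not pass (log2 fold change 0.21, edgeR adjusted p = 0.766), and the p53 relatives *Trp63* and *Trp73* had 0 counts in every library.

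**Figure D4:**
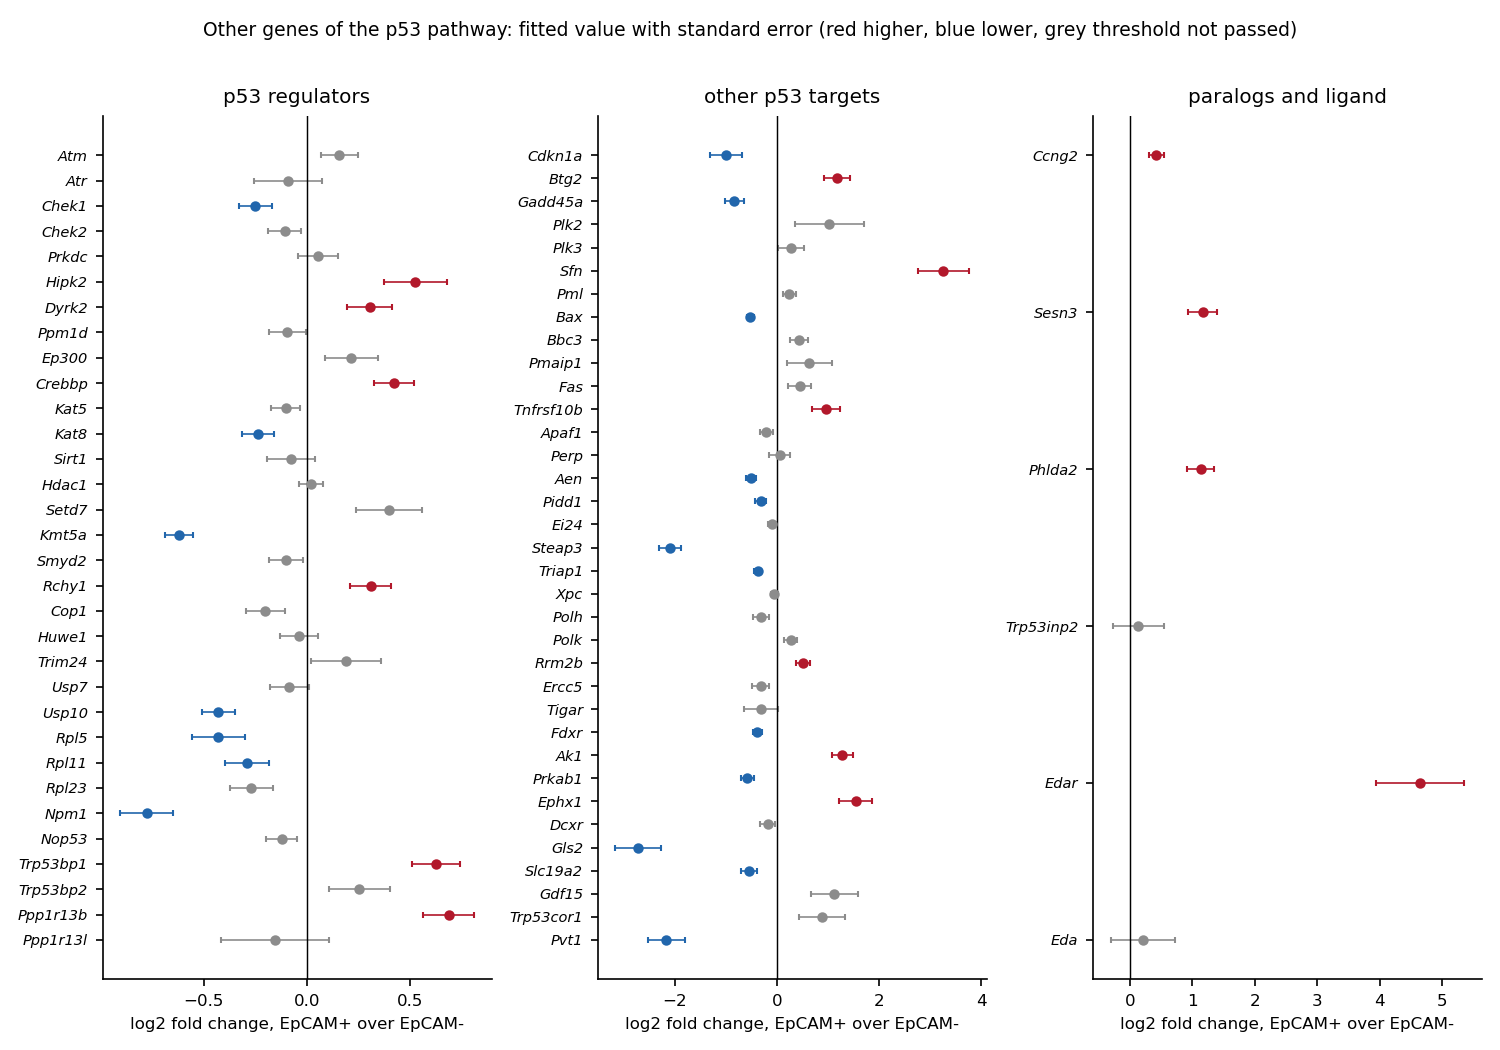
Log2 fold change (EpCAM+ over EpCAM-) with its standard error for the tested p53 regulators, other p53 targets and paralogs. Red is higher, blue lower and grey a threshold not passed, and the horizontal scales differ between panels. Regulators spread to both sides of 0, from Npm1 at -0.78 to Ppp1r13b at 0.69, and the called targets lie on both sides as well, with 12 lower and 6 higher.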

How the data were processed

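RNA was amplified with SMART-Seq v4 from 4 EpCAM+ and 4 EpCAM- libraries. The authors aligned the reads to GRCm38.p6 with STAR 2.6.1d and deposited raw read counts per gene from FeatureCounts 1.5.0-p3, without normalization. Annotation release, strandedness and multi-mapping are not given in the sources used here. The deposited FPKM, computed by the authors, were used only for the order of levels. Their 5 sets of DESeq2 fold changes and p-values were not used.

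Counts were filtered with filterByExpr, scaled by TMM and tested with edgeR 4.0.16 in R 4.3.3 (quasi-likelihood, two-sided, Benjamini-Hochberg over 13560 genes). The main fit held the fraction only, without the replicate number. Limma 3.58.1 and DESeq2 1.42.0 served as alternatives. Standard errors came from the F statistic. Log2 CPM used a prior count of 2, and ratios to Trp53 a pseudocount of 0.5. The procedure was tested on simulated data.

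Intervals and floors cover counting and library spread only, and the reads carry no molecular identifiers. The submitters give 4 mice per genotype. Libraries of the same fraction, compared in 12 pairs by a chi-square test of their counts, all differed beyond sampling noise (9.80 to 91.7 for each degree of freedom). The replicate numbers pair the samples: deviations from the fraction means correlated at 0.205 to 0.356 across genes within the 4 same-numbered pairs, and at -0.216 to 0.0396 in the 12 others. What a number stands for is not stated.

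The members and lists were chosen with earlier results of these data known. Named genes are all members, Cdkn1a, Bax and Bbc3, up to 4 called genes per direction and list by adjusted p, the sort and deletion markers, the 3 genes most correlated with Trp53 and genes overlapping a member. Rpl11, Eda, the markers of other cells and genes with 0 or few counts were named after their values were seen.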

Additional observations from a re-analysis of the deposited data

Results flagged for a closer look

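Within each fraction of 4 libraries, the highest or lowest CPM was compared with the others for 36 of the named genes. These were the members, Cdkn1a, Bax, Bbc3, the genes picked from the lists by adjusted p, and the sort and deletion markers. The other genes named here were not screened. A gap, as a share of the whole range, above Dixon's critical value for 4 samples was found in 8 of 72 groups, where chance gives about 1 in 20, and in none of the members. The libraries of the same fraction gave the ranges set beside each value. Rpl5 was low in EpCAM+ replicate 1 (615 CPM against 838 to 861, gap 0.907 of the range) and in EpCAM- replicate 1 (873 CPM against 1111 to 1156, gap 0.842). Sfn was high in EpCAM+ replicate 1 (22.8 CPM against 5.67 to 7.65, gap 0.884). Bax was low in EpCAM- replicate 1 (106 CPM against 116.2 to 116.5, gap 0.968), and Trp53bp1 was high in the same library (26.9 CPM against 18.97 to 19.98, gap 0.873). Kmt5a was low in EpCAM+ replicate 4 (118 CPM against 127 to 128, gap 0.915), and so was Phlda2 (14.9 CPM against 18.0 to 18.7, gap 0.837). Edar had 3 counts in EpCAM- replicate 3 and 0 in the other EpCAM- libraries (gap 1.00 of the range).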

How the results depend on the processing

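The calls of Trp53 and Ccng1 were made under every alternative run. Of the members, 4 to 5 passed under other tests, scalings, filters and the block, and 2 to 5 with 1 library left out, the lowest without EpCAM- replicate 3. Sesn1 passed with upper-quartile scaling (log2 fold change 0.31), library totals (0.30), a filter of 10 counts in every library (0.25) and the replicate block (0.23), and the block changed the call of no other member. With 1 library left out its log2 fold change ran from 0.16 to 0.26 and passed without EpCAM- replicate 1 or 2, that of Phlda3 from -1.05 to -0.75 and that of Trp53inp1 from 0.69 to 1.14. Sesn2, never called, ran from -0.10 to 0.19 and was below 0 without EpCAM+ replicate 1 (-0.02), EpCAM- replicate 2 (-0.03) or EpCAM- replicate 4 (-0.10). Of the regulators 7 to 12 were called with 1 library left out, with 7 without EpCAM+ replicate 3 or EpCAM- replicate 3, and 15 with the block. The other targets gave 14 to 20 calls over other settings. Library totals alone gave 3476 genes higher and 2066 lower. With FPKM, 6 of 10 members kept their rank. Zmat3 and Eda2r rest on at most 17 counts per library.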
